A study of Homo sapiens with 57 samples.

Results

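A set of 126 of the 412 genes on a targeted expression panel (30.6%) was nearly silent in HK-2 cells. They were chosen by their counts in the 48 control wells: every panel gene whose raw count, averaged over these wells, was under 1, with CXCL8 set aside by name. CXCL8 averaged 3.25 counts in those wells, so it was not under the threshold in any case. HK-2 cells are human kidney epithelial cells of the proximal tubule, immortalised with papillomavirus genes, and all data come from this 1 cell line. The panel was read by RASL-seq, in which pairs of short probes anneal to an mRNA, are ligated where they lie side by side, and are amplified and counted.

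The study applied ethanol extracts of Roucongrong, Yinyanghuo and Gusuibu, the herbs of a recipe used against infertility, to find panel genes that respond to each of them. Each herb group held 3 wells that received the extract at 100 μg/mL for 24 h, and each herb had a control group of its own with 16 wells labelled 0.50% DMSO. All 57 wells were seeded with 3000 HK-2 cells without any labelled genetic change, and the labels do not give the solvent of the herb wells. Nothing states that the wells of a group came from separate cultures, so the spread described here is that between wells.

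Total counts per well ran from 13581 to 75969 (median 35239), so that 3 counts, taken as the floor below which a value cannot be told from 0, stood for 39.5 to 221 CPM (counts scaled to the same total). The ligation products carry no molecular identifiers, and the floor therefore covers counting error only. A gene is described as above the floor in a well when it had more than 3 counts there.

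As background, every cell type transcribes only a part of the genome, and a gene panel built around signalling pathways contains many genes whose mRNA is made by other tissues. Plasma proteins and their lipid carriers come mostly from hepatocytes. Most chemokines, interleukins and components of the phagocyte oxidase are made by white blood cells, often only after stimulation. Proximal tubule cells reabsorb filtered solutes and express a limited repertoire of such genes at rest.

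The panel holds few genes by which the labelled cell type can be checked. The mesenchymal filament gene VIM had 373 to 1615 counts in the DMSO wells (median 832), the cadherin gene CDH2, which proximal tubule cells use in place of E-cadherin, had 268 to 869 (median 525), and the tubular injury marker LCN2 had 22 to 102 (median 49). These are the 3 genes of the epithelial and proximal tubule list that the panel holds, none of them specific to the proximal tubule and none nearly silent. HNF4A, a transcription factor of liver and of differentiated proximal tubule that was not on the list, was nearly silent, with a mean of 0.229 counts and 0 to 3 counts per DMSO well (median 0).

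The values that define the set were low throughout. Mean counts in the DMSO wells ran from 0.0208 to 0.958, with a median of 0.229 against 20.4 for the other 286 panel genes and 5029 for the most abundant one. Together the 126 genes took 1885 counts in the DMSO wells, which is 0.107% of all counts there. Of the 6048 values that the 126 genes have in 48 DMSO wells, 4831 (79.9%) were 0, 774 (12.8%) were 1, and 56 (0.926%) were above the floor. The highest single value was 6, reached 9 times. Because these values chose the genes, they are given as a description without a test.

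**Figure D1:**
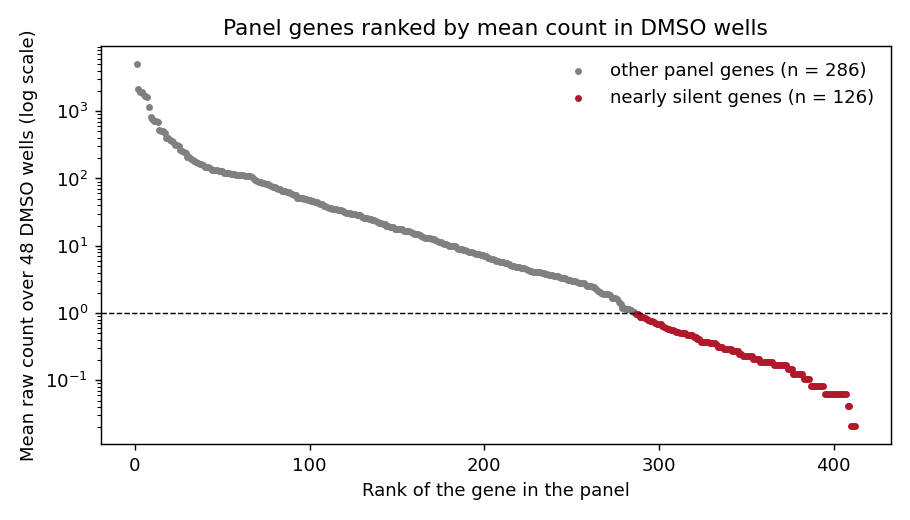
Mean raw count over the 48 DMSO wells (vertical axis, log scale) against the rank of each of the 412 panel genes (horizontal axis), with the 126 nearly silent genes in red, the other 286 in grey and a dashed line at 1 count. The nearly silent genes form the tail of the curve, from 0.958 down to 0.0208 counts, and there is no gap where the line crosses it.

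The threshold fell within a continuous range. Just inside it stood the sphingosine 1-phosphate receptor gene S1PR3 and the interleukin 1 receptor gene IL1R1, each with a mean of 0.958, then HGF, CSF3 and C4B with 0.875. Just outside stood CCNA1 and PPP3R1 with 1.04, CCL20 with 1.10, and PLG and PIK3R2 with 1.17. At the other end, 26 genes averaged under 0.1 counts, and S1PR1, PIAS4 and MMP1 each had 1 count in all DMSO wells together and 0 in every herb well. No gene was at 0 in all of the DMSO wells. Taken set by set, 113 of the 126 averaged under 1 in each of the 3 control groups.

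The remaining 13 reached a mean of at least 1 in some control group, among them CITED2, CSF1 and CCL19. The means of CITED2, a transcriptional coregulator, were 1.38, 0.25 and 0.75 in the DMSO wells of the Roucongrong, Yinyanghuo and Gusuibu sets. CSF1, the growth factor of macrophages, averaged 1.25, 0.375 and 0.313 in the same order, and the lymphoid chemokine CCL19 averaged 1.25, 0.25 and 0.125. The Roucongrong control wells were therefore the highest for all 3 of these genes, which were named after their values were seen.

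Even untreated, most of these genes gave an occasional count. The median was 0 for 123 of them and above 0 for 3, and 92 never exceeded the floor in a DMSO well. The other 34 did so in at least 1 DMSO well. S1PR3 and CSF3, the granulocyte growth factor, were above the floor in 4 of the 48 DMSO wells, and CCL11, IGFBP4, RARA and CYP26A1 were in 3. Variance over the mean, which is 1 for pure counting noise, had a median of 1.38 across the genes and ran from 0.869 to 3.02, with 16 genes above 2. Single counts of 4 to 6 thus occurred in wells without any herb.

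By function, signals between cells of the immune system made up the largest class. It held 27 genes for cytokines, chemokines and their receptors, which took 26.7% of the DMSO counts of the whole set. Among the ligands were the chemokines CCL2, CCL3, CCL4, CCL5, CCL11, CCL19, CCL22 and CXCL10, which attract leukocytes, and the cytokines TNF, IL1A, IL1B, IL4, IL12B and IL17F. The receptors included IL1R1, IL4R, IL23R, TNFRSF1B, CCR1 and CCR2. Their means ran from 0.0625 for CCL5, IL4 and IL1B to 0.958 for IL1R1.

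Silence was not shared by every inflammatory gene of the panel. Of 17 genes on the list of chemokines and chemokine receptors, which also holds the formyl peptide receptor gene FPR1, 12 (70.6%) were nearly silent. By contrast the neutrophil chemokine CXCL2 averaged 16.5 counts in the DMSO wells. Of 14 cytokines made mainly by leukocytes, 9 (64.3%) were nearly silent, whereas IL6 averaged 1918 counts, IL23A 135 and IL18 81.0. For cytokine receptors, a list that also holds the receptor antagonist gene IL1RN, the count was 6 of 12 (50%).

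Proteins typical of leukocytes formed a class of 15 genes. NCF1 and CYBB encode parts of the phagocyte NADPH oxidase, which makes superoxide, and NOS2 encodes the inducible nitric oxide synthase. These genes were nearly silent, and of the 5 genes on the list of nitric oxide synthases and NADPH oxidase 4 (80%) were. CYBA, the widely expressed membrane subunit, with 13.3 counts in the DMSO wells, was the exception. The integrin subunits ITGAM and ITGAX, the guanine nucleotide exchange factor VAV1, the engulfment adaptor ELMO1, the kinase JAK3, the lymphocyte factor IRF4, the costimulatory ligand CD86 and the low-affinity IgE receptor FCER2 belonged here too. Of the 8 leukocyte markers on the panel 6 (75%) were nearly silent. ITGB2, the common integrin subunit of leukocytes, averaged 10.9 counts, and the formyl peptide receptor gene FPR1 averaged 2.5.

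The next large group was assigned to the liver, with 22 plasma proteins and 6 metabolic enzymes, though not all are made there alone. Coagulation and its control were represented by F2, F13A1, FGA, FGG, PROC, SERPINC1, SERPIND1 and KNG1. F13A1 was placed here as a plasma clotting factor, although the liver is not its main source. Lipid transport was represented by APOA1, APOA5, APOB, APOL1 and PON1, complement by C4A and C4B, and carriers by ALB, TF, CP and AHSG. Their means ran from 0.0625 for APOB to 0.875 for C4B. Among the enzymes were PCK1, which controls gluconeogenesis and is not confined to the liver, and the alcohol dehydrogenases ADH1A and ADH1C. Of 8 hepatocyte markers on the panel, 7 (87.5%) were nearly silent, the highest share of any list with at least 4 genes.

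Enzymes of steroid and retinoid metabolism, and the receptors of such ligands, were represented as well. Of 13 cytochrome P450 genes, 8 (61.5%) were nearly silent. They included CYP11A1, which starts steroid synthesis from cholesterol, CYP19A1, the aromatase, CYP21A2, the adrenal 21-hydroxylase, CYP27A1 and CYP39A1 of bile acid synthesis, and CYP26A1 and CYP26B1, which degrade retinoic acid. CYP2S1 with 43.8 counts and CYP4V2 with 17.9 were not. Of 25 genes on the nuclear receptor list, which leaves out HNF4A, 10 (40.0%) were nearly silent. Among them were the estrogen receptor gene ESR1 with a mean of 0.5 and PPARA with 0.167. NR1H2 with 24.5 counts, PPARD with 14.7 and NR1H4 with 13.9 were not.

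The smaller classes were 9 hormones, growth factors and IGF binding proteins (such as INS, IGF1, IGF2, HGF and FGF23), 12 signalling proteins, 8 transcription factors (such as SOX2, NANOG, TP63 and TP73), 5 genes of adhesion, matrix and proteolysis, and 3 amine oxidases and other genes. For the appetite peptides AGRP and NPY the means were 0.104 and 0.5. Of the 9 subunit genes of heterotrimeric G proteins, GNG2, GNGT1 and the neuronal GNG3 were nearly silent, with means of 0.167, 0.0625 and 0.229, while GNG5 averaged 373 counts and GNG11 averaged 313. None of the 4 receptor tyrosine kinase genes was in the set, and 7 of 30 FOXO factors and targets (23.3%) were.

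**Figure D2:**
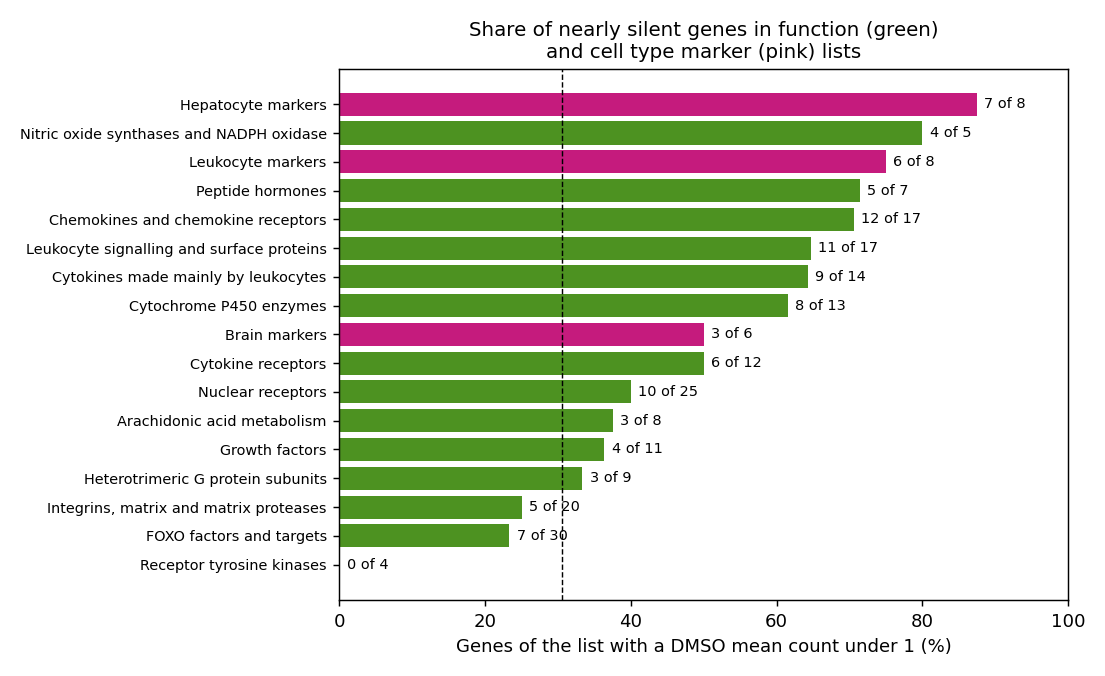
Percent of the panel genes of each list with a DMSO mean under 1 (horizontal axis) for lists with at least 4 panel genes, function lists in green and cell type marker lists in pink, with the counts beside each bar and a dashed line at 30.6%, the share in the whole panel. Hepatocyte markers (7 of 8), nitric oxide synthases and NADPH oxidase (4 of 5) and leukocyte markers (6 of 8) stand at the top, and receptor tyrosine kinases (0 of 4) at the bottom.

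Some members have a broad tissue distribution. MTOR, the kinase at the centre of growth control, averaged 0.583 counts, ITPR3, a calcium release channel, 0.0625, PIAS4, a SUMO ligase, 0.0208, RXRB 0.375 and the mitochondrial ALDH2 0.375. These genes were picked after their values were seen. A low mRNA level and a probe pair that ligates poorly cannot be told apart in such counts, since neither probe sequences nor a second assay were used here. For C4A and C4B, CCL3 and CCL3L1, ADH1A and ADH1C, NCF1 and its pseudogenes, and CYP21A2 and its pseudogene, near-identical copies exist, and the split of reads between copies is uncertain.

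The herb wells were examined for isolated high counts. Of 1134 values in the 9 herb wells, 78.0% were 0 and 21 were above the floor, spread over 18 genes. A single well, Roucongrong well 3, held 13 of the 21 (61.9%). The Gusuibu wells 2 and 3 held 3 each and Yinyanghuo well 3 held 2, while the other 5 herb wells had no nearly silent gene above the floor. Without Roucongrong well 3, 8 values in 6 genes remained above the floor. The numbers of genes above it, 13, 2 and 5 with Roucongrong, Yinyanghuo and Gusuibu, were 13, 17 and 10 when counts were scaled to the median total, so Roucongrong led in raw counts and Yinyanghuo in scaled ones. Of the 48 DMSO wells, 15 had no such gene, 15 had 1, 15 had 2, 2 had 3, and the highest had 5.

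**Figure D3:**
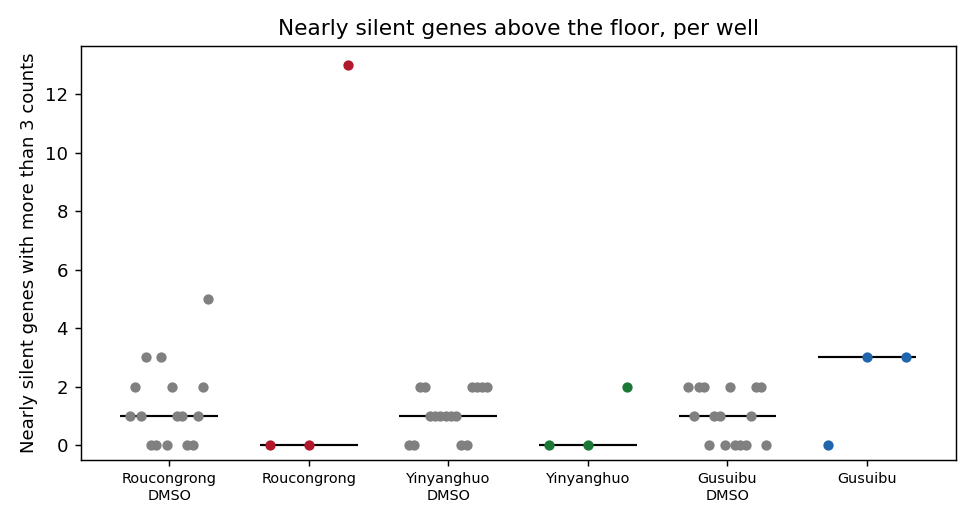
Number of nearly silent genes with more than 3 counts (vertical axis) in each well, by group (horizontal axis), with DMSO wells in grey, herb wells in colour and a line at each group's median. Roucongrong well 3 stands alone at 13, while no other herb well exceeds 3 and no DMSO well exceeds 5.

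Roucongrong well 3 also stood apart in its sum over the set. The 126 genes took 27, 29 and 146 counts in Roucongrong wells 1, 2 and 3, against 20 to 73 (median 42) in the 16 DMSO wells of the set. As a share of all counts this was 0.0863% (95% Wilson interval 0.0593% to 0.126%), 0.0724% (0.0504% to 0.104%) and 0.395% (0.336% to 0.464%), against 0.0532% to 0.221% (median 0.0904%) in the DMSO wells. Wells 1 and 2 therefore lay within the DMSO range and well 3 above all of it. The intervals cover the sampling of reads only, not the spread between wells. The total count of well 3, 36988, was not unusual.

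A few genes carried that sum. The 13 genes above the floor supplied 103 of its 146 counts (70.5%), and the leading 4 supplied 57. NCF1 (Entrez 653361), the cytosolic organiser of the phagocyte oxidase, had 0, 0 and 17 counts in the 3 Roucongrong wells and 0 to 2 (median 0) in their DMSO wells. APOA5 (116519), a liver apolipoprotein that governs plasma triglyceride, had 0, 0 and 16 counts, and all 16 DMSO wells of the set were at 0. In both cases 1 well alone was high and its replicates could not be told from their controls.

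IL1R1 (3554), the signalling receptor of interleukin 1, had 1, 0 and 13 counts against 0 to 4 (median 0.5) in the DMSO wells of the set. For GNG3 (2785), a G protein gamma subunit of neurons, the counts were 0, 1 and 11 against 0 to 1 (median 0). The values of NCF1, APOA5, IL1R1 and GNG3 in well 3 correspond to 460, 433, 351 and 297 CPM, against a floor of 81.1 CPM in that well. GNG3 and IL1R1 are also the nearly silent genes that the study lists as responding to Roucongrong, and their counts in wells 1 and 2 lay within the DMSO range.

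These 4 genes have the highest counts of the set in any herb well, and their promoters are shown so that the loci behind the isolated counts can be seen. Each sequence is RefSeq's window from 250 bases before to 50 after the gene start, in GRCh38.p14, written 5′ to 3′ on the gene's strand with every CG pair in capitals. NCF1 lies at chr7:74773761-74774060 on the plus strand, APOA5 at chr11:116792371-116792670 on the minus strand, IL1R1 at chr2:102104354-102104653 on the plus strand and GNG3 at chr11:62707426-62707725 on the plus strand.
NCF1: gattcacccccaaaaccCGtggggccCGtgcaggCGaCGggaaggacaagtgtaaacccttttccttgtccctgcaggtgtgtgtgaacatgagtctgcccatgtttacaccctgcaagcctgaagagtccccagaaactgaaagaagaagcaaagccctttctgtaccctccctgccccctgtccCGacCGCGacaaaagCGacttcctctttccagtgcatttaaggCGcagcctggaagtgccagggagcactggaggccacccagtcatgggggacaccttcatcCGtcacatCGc
APOA5: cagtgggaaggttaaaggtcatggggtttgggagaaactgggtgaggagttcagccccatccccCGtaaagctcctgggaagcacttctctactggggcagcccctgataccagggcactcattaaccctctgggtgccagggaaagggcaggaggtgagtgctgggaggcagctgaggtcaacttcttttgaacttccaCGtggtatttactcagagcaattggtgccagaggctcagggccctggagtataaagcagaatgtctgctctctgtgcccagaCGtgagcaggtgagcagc
IL1R1: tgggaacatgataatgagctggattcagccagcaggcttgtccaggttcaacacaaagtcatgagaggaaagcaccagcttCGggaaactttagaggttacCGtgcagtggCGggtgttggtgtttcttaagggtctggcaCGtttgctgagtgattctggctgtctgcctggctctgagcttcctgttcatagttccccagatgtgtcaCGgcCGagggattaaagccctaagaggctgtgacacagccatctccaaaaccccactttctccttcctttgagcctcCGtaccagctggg
GNG3: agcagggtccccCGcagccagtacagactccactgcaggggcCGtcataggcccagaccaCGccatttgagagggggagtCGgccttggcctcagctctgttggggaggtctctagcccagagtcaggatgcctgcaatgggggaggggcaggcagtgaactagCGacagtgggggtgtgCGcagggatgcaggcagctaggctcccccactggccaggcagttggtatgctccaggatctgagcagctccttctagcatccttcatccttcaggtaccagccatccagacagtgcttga

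The 4 windows hold 11, 3, 7 and 6 CG pairs, in the order printed, against a median of 14 in 27303 RefSeq windows of the same length (quartiles 3 and 28). The 4 loci lie on 3 chromosomes, and nothing about the counts is drawn from these letters. RASL-seq probes read the mature mRNA, not the promoter.

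The other 9 genes above the floor in Roucongrong well 3 had 4 to 7 counts. CYP11A1, the cholesterol side-chain cleavage enzyme, had 0, 0 and 7 against 0 to 2 (median 0) in its DMSO wells. IGFBP4, a binding protein of the insulin-like growth factors, had 1, 0 and 7 against 0 to 4 (median 0). These are the only ones of the 9 with a well above the highest DMSO count of 6 anywhere in the set.

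SERPIND1, the plasma inhibitor heparin cofactor II, had 0, 0 and 5 counts against 0 to 2 in the DMSO wells. RARA, a retinoic acid receptor gene, also had 0, 0 and 5, against 0 to 3, and C4B had 0, 2 and 5 against 0 to 3. VAV1 had 0, 0 and 5 against 0 to 4. IGFBP5 (0, 1 and 4 against 0 to 3), CCL19 (0, 1 and 4 against 0 to 4) and ELMO1 (1, 0 and 4 against 0 to 2) had the smallest counts above the floor. For RARA and IGFBP5, DMSO wells of another set reached 6 and 5, so that these counts lay inside the range of untreated wells.

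**Figure D4:**
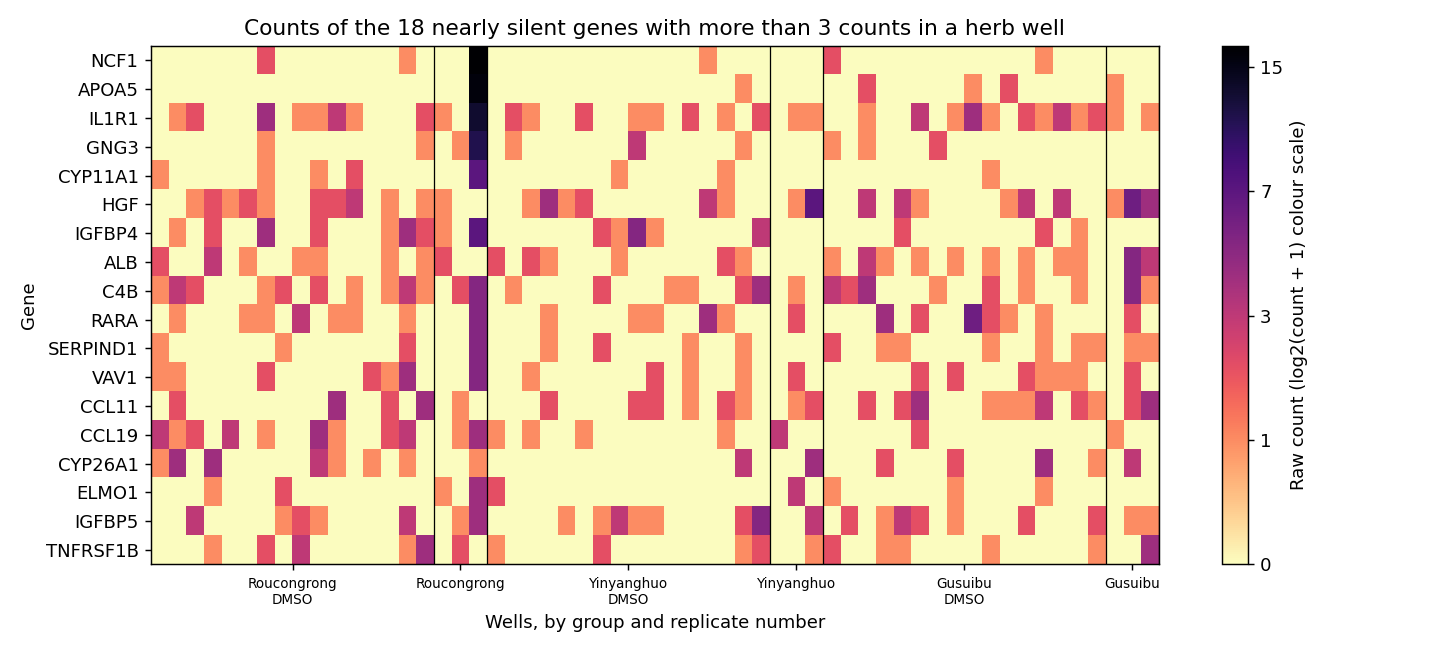
Raw counts (colour, log2(count + 1) scale) of the 18 nearly silent genes with more than 3 counts in some herb well, 1 line per gene, in all 57 wells (horizontal axis, by group and replicate number). The last Roucongrong column is dark across 13 genes, up to 17 counts for NCF1, while the DMSO columns show scattered counts of at most 6.

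The genes that were high in Roucongrong well 3 came from 7 of the 11 functional classes. Among them were 3 plasma proteins of the liver, 3 leukocyte proteins, 2 cytokine or receptor genes, 2 growth factor or IGF binding protein genes, and 1 each of the cytochrome P450 enzymes, nuclear receptors and signalling proteins. No list of cell type markers was high as a whole in that well, and the part of other cell types in these counts was not tested. The 8 hepatocyte markers summed to 3 counts there, all from APOB, with 7 markers at 0, against 0 to 10 (median 4.5) in the DMSO wells of the set. The 8 leukocyte markers summed to 38 against 8 to 24 (median 17), but NCF1 gave 17 and ITGB2 19 of these, and CYBB, FCER2, ITGAM and ITGAX were at 0. ITGB2 had 17 counts in Roucongrong well 1 as well. The 6 brain markers summed to 101, inside the DMSO range of 82 to 255, of which GNG3 gave 11.

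Among the 3 Roucongrong wells, well 3 was also the highest in other genes of low abundance. In that well 16 of the 126 genes (12.7%) exceeded all 16 DMSO wells of the set, against 11 of the other 286 (3.85%). In Roucongrong wells 1 and 2 the counts were 0 and 2 of the 126 (1.59% in well 2) and 3 of 286 (1.05%) in each. Among the 71 other genes with a DMSO mean from 1 to under 5, the neighbours of the set in abundance, 8 (11.3%) exceeded all DMSO wells in well 3, against 2 and 1 in wells 1 and 2. For these 71 genes the share was 4.23%, 7.04% and 18.3% in Yinyanghuo wells 1, 2 and 3. It was 0%, 11.3% and 22.5% in Gusuibu wells 1, 2 and 3, so the share of Roucongrong well 3 was not particular to it. Low controls are exceeded by few counts and the controls also chose the 126 genes, so these shares are a description.

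The Yinyanghuo wells had 2 raw counts above the floor. Scaled to the median total, 17 genes had a value above 3 in some Yinyanghuo well, since 2 counts in wells 1 or 2 then pass it. The nearly silent genes took 30, 31 and 41 counts in wells 1, 2 and 3, against 13 to 58 (median 33.5) in the 16 DMSO wells. As a share of all counts this was 0.137%, 0.228% and 0.116%, within the DMSO range of 0.0425% to 0.241% (median 0.112%). HGF, the hepatocyte growth factor gene of mesenchymal cells, had 0, 1 and 7 counts against 0 to 4 (median 0). CYP26A1 had 0, 0 and 4 counts against 0 to 3 (median 0), with 15 of its 16 DMSO wells at 0. The 7 counts of HGF in well 3 are the only herb value outside Roucongrong well 3 that was above the DMSO highest of 6.

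In well 3 of this herb, 4 of the 126 genes (3.17%) exceeded all DMSO wells of the set, against 43 of the other 286 (15%). For wells 1 and 2 the corresponding shares were 1.59% and 3.97% of the nearly silent genes and 3.15% and 2.10% of the others. Well 2 had the smallest total of all wells, 13581, and its share of the 3 genes of the epithelial and proximal tubule list was low. CDH2, LCN2 and VIM summed to 261 counts there, or 1.92% of the total, against 808 (3.69%) and 1387 (3.93%) in wells 1 and 3 and 3.43% to 4.57% in the DMSO wells. All 3 Gusuibu wells were below their DMSO range for these genes too, with 3.07%, 3.05% and 3.61% against 3.69% to 4.61%. Roucongrong well 1 was above its own, with 4.13% against 2.16% to 3.94%. The part of the low share of these genes in the 0.228% that nearly silent genes took in Yinyanghuo well 2 was not tested.

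In Gusuibu wells 2 and 3, but not in well 1, more of the genes gave a count than in any DMSO well of the set, and no value in the 3 wells was above 6. The genes took 24, 77 and 72 counts in wells 1, 2 and 3 against 24 to 57 (median 34.5) in the DMSO wells, so that wells 2 and 3 exceeded every control. The shares of all counts were 0.132%, 0.213% and 0.156%, against 0.0600% to 0.183% (median 0.0939%), and only well 2 was above that range. HGF had 1, 6 and 4 counts against 0 to 3 (median 0). ALB, the main plasma protein, had 0, 5 and 3 counts against 0 to 3 (median 1). C4B had 0, 5 and 1 against 0 to 4 (median 0), CCL11, the eosinophil chemokine, had 0, 2 and 4 against 0 to 4 (median 1), and TNFRSF1B, a receptor of tumour necrosis factor, had 0, 0 and 4 against 0 to 2 (median 0).

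HGF was thus the 1 gene with more than 3 counts in at least 2 wells of the same herb. In Gusuibu wells 2 and 3 the rest of the panel moved as well. There 7 (5.56%) and 11 (8.73%) of the 126 genes exceeded every DMSO well of the set, against 39 (13.6%) and 56 (19.6%) of the other 286, while the shares in well 1 were 2.38% and 0%. The 8 hepatocyte markers summed to 0, 19 and 9 counts in the 3 Gusuibu wells against 1 to 9 (median 4) in the DMSO wells, of which the gluconeogenic G6PC1, not a member, gave 0, 12 and 4. F2, FGA and APOA1 were at 0 in all 3 wells.

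The number of genes detected moves with depth, so it was also computed at equal depth. With all reads, 25, 21 and 39 of the 126 genes had at least 1 count in Roucongrong wells 1 to 3, against 14 to 45 (median 26) in the DMSO wells. The numbers were 19, 21 and 19 for Yinyanghuo against 9 to 38 (median 23.5), and 18, 43 and 44 for Gusuibu against 17 to 35 (median 25). Thinned to 13581 counts, the expected numbers were 11.3, 8.83 and 25 for Roucongrong, against 6.36 to 24.0 in DMSO. They were 13.9, 21.0 and 10.9 for Yinyanghuo against 4.87 to 23.9, and 14.4, 22.3 and 18.1 for Gusuibu against 7.5 to 18. At equal depth Roucongrong well 3 and Gusuibu wells 2 and 3 were above the range of their DMSO wells.

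**Figure D5:**
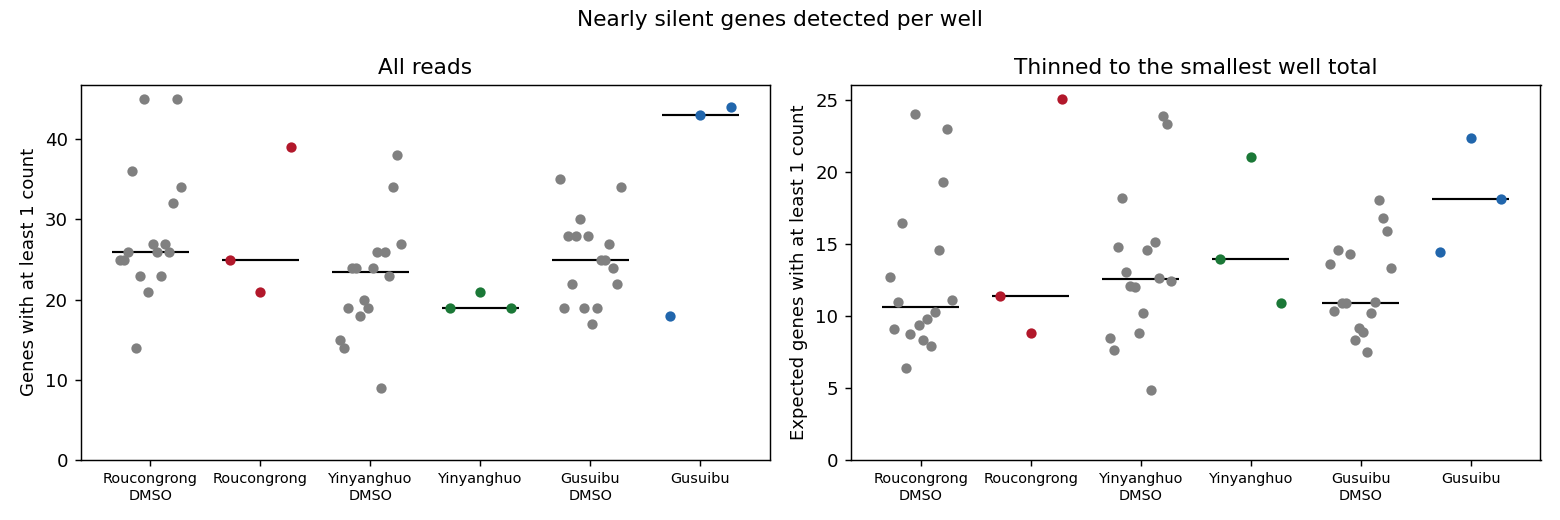
Number of nearly silent genes with at least 1 count per well (vertical axes) by group (horizontal axes), with all reads on the left and as the expected number after thinning each well to 13581 counts on the right. DMSO wells are grey, herb wells coloured and lines mark medians. With all reads Gusuibu wells 2 and 3 (43 and 44) exceed their DMSO wells, and after thinning Roucongrong well 3 (25) is the highest of all wells.

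Counts that recurred across the 3 wells of a herb were small. IGF2, a fetal growth factor, had 1, 1 and 3 counts with Roucongrong against 0 to 1 in the DMSO wells. IL4R, an interleukin 4 receptor chain, had 1, 1 and 3 with Yinyanghuo against 0 to 4. With Gusuibu this held for HGF, for MTOR (2, 1 and 1 against 0 to 2) and for FOXO1, a factor of the insulin response (1, 1 and 2 against 0 to 2). No other gene of the set had a count in all 3 wells of a herb, and 59, 76 and 53 genes were at 0 in all 3 wells of Roucongrong, Yinyanghuo and Gusuibu. In all 9 herb wells 21 genes were at 0, among them NOS2, IL1B, APOA1, FGA and COL1A2.

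Several genes that the study names as targets of the recipe belong to the set, and their probes gave few counts in any well. Of the genes below, the study took all but IL4 from databases of compound targets, and ESR1 from docking as well. For IL4 it reported higher mRNA by RT-qPCR in SK-OV-3 cells, another line, with single herbs at a higher dose than here. The HK-2 counts are not a check of either kind of evidence. ESR1 had 0 counts in every Roucongrong well, 3, 0 and 0 in the Yinyanghuo wells and 0, 2 and 2 in the Gusuibu wells, against 0 to 4 in DMSO wells. CYP19A1 had 1 count in 1 Roucongrong well and 0 in the other 8 herb wells. CYP1B1, a P450 induced by aryl hydrocarbons, had 1, 0 and 1 counts with Gusuibu and 0 in the other 6 herb wells. The herb wells held at most 3 counts of IL1A, 2 of CCL2, IL4 and PON1, 1 of TNF and 0 of IL1B. None of these genes had a herb well above the floor. By the edgeR criteria given next, ESR1, CYP1B1 and PON1 were nevertheless called higher with Gusuibu and IL4 with Yinyanghuo, on 1 or 2 counts per nonzero well, and with DESeq2's Wald test none of the 4 was called.

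Each herb was compared with its own DMSO wells by edgeR's quasi-likelihood test over the whole panel, and a call required p under 0.05 before adjustment together with a fold change over 1.5 upward or under 0.67 downward. The control wells of this contrast also chose the genes, by their low counts there, so the calls are a description and support nothing. With Roucongrong 116 of the 126 genes could be tested and 14 (12.1%) were called, all higher, where 10.2% of all 402 tested genes were called (7.21% higher, 2.99% lower). The 14 were APOA5, APOB, CCL5, CYP11A1, ELMO1, GNG3, IGF2, IL1R1, MAOB, NANOG, NCF1, PPARA, RARB and SERPIND1, and 7 of them had no Roucongrong well above the floor. APOA5, GNG3, IGF2 and NCF1 had an adjusted p under 0.05 in edgeR with Benjamini-Hochberg adjustment, as did 2.99% of all tested genes. None of the 126 kept an adjusted p under 0.05 with DESeq2's Wald test, with a replicate block or without well 3, and 1 did among genes with a mean of at least 1. DESeq2's default filters can leave low or single-well counts without an adjusted p, and single-well counts without any p. A gene without a p counted as not called, here and below. The block sets each herb well only against the DMSO well of the same number, so neither result decides about these genes. In edgeR the number was 4 with RLE or total-count scaling, 3 without well 1, 7 without well 2 and 6 with all 57 wells in one fit. DESeq2 called 2 of the 14, GNG3 and IL1R1, by the unadjusted criteria. Without well 3 the number called was 3, namely CCL5, MAOB and RARB, none with a well above the floor.

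With Yinyanghuo 114 genes were tested and 6 (5.26%) were called, all higher, against 15% of all 400 tested genes (7.75% higher, 7.25% lower), and in 5 of the 6 no Yinyanghuo well was above the floor. For Gusuibu 116 were tested and 11 (9.48%) were called, all higher, against 9.45% of all 402 genes (7.71% higher, 1.74% lower), and 9 of the 11 had no Gusuibu well above the floor. By edgeR none of the nearly silent genes had an adjusted p under 0.05 with either herb, against 7.5% and 5.22% of all tested genes, and DESeq2's Wald test called 0 of them by the unadjusted criteria. With all 57 wells in one edgeR fit, 1 had an adjusted p under 0.05 with Yinyanghuo. The median log2 fold change with Roucongrong was -0.25 for the tested nearly silent genes and -0.04 for all tested genes. It was -0.57 and -0.13 with Yinyanghuo, and 0.12 and 0.04 with Gusuibu. These medians do not show a fall or rise of the set, since many of its genes had no herb count. With Roucongrong, Yinyanghuo and Gusuibu, 59, 76 and 53 were at 0 in all 3 wells, untested ones included. The set's median share of all counts was 0.0863%, 0.137% and 0.156% in the herb wells. In their DMSO wells it was 0.0904%, 0.112% and 0.0939%. Differences between the herbs were not tested.

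At least 1 herb well exceeded every DMSO well of its set for 18 of the 126 genes (14.3%) with Roucongrong, where this held for 8.01% of the 412 panel genes. With Yinyanghuo it held for 11 (8.73%) against 14.8%, and with Gusuibu for 18 (14.3%) against 23.1%. For none of the 126 genes did all 3 wells of a herb exceed all 16 DMSO wells. The matching share of all panel genes is not given here, so this is a description only. A single count can exceed all DMSO wells where every one of them is at 0.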

How the data were processed

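RASL-seq was run on 57 wells of HK-2 cells. Probes were annealed, captured with oligo (dT) beads, ligated and amplified by PCR, and read 1 was sequenced. The authors removed reads with more than 3 mismatches and deposited raw counts per Entrez gene and well, without normalization. The submitters' processing notes name Bowtie2 2.2.4 and DESeq2 1.22.1, without roles, and a genome build is not given in the sources used here. Groups came from the labels, and no well was left out.

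The set was every gene with a mean raw count under 1 over the 48 DMSO wells. The genes, classes and lists were chosen with earlier results of these data known. Functional classes were assigned by hand from general knowledge, and lists by symbol. Symbols, chromosomes and promoter windows came from RefSeq (GRCh38.p14), which matched all 412 identifiers. Windows were found for 85 of the 126 genes (67.5%, under the 80% required), so the planned comparison of promoter features was void.

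Each herb was compared with its 16 DMSO wells by edgeR 4.0.16 (quasi-likelihood test, TMM normalization, genes with a nonzero total) in R 4.3.3. Alternatives were RLE or total-count scaling, DESeq2 1.42.0, filters on low counts, other floors, leaving out each herb well, all 57 wells in one fit, and the label's well number as a block. The scripts were tested on simulated data. Plots used matplotlib 3.10.9. Named genes are those above the floor in a herb well, those with the highest herb counts, those the study lists as responding or as key targets, the 5 on each side of the threshold, those with an adjusted p under 0.05, those above the floor in the most DMSO wells, and examples of lists. MTOR and other broadly expressed members, the genes at 0 in all herb wells and those seen in all 3 wells of a herb were named after their values were seen. Probe sequences, the study's databases, docking and RT-qPCR were not analysed here. Results for a few members are not reported here.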

Additional observations from a re-analysis of the deposited data

How the results depend on the processing

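The size of the set was 97 with a mean under 0.5, 145 with a mean under 2, 126 after scaling every well to the median total, 113 with a mean under 1 in each set and 123 with a median of 0. Depth limits everything else, since most values are 0 or 1. With more than 5 counts required, the number of genes above the limit was 6, 1 and 1 for Roucongrong, Yinyanghuo and Gusuibu, and with more than 1 count it was 31, 24 and 36, against 13, 2 and 5. After scaling to the median total it was 17 for Yinyanghuo and 10 for Gusuibu. Leaving out each herb well in turn gave 0 to 13, 0 to 2 and 3 to 5. It was 0 without Roucongrong well 3 or without Yinyanghuo well 3, and 3 without Gusuibu well 2 or without well 3. Calls fell from 14, 6 and 11 to 2, 0 and 2 with edgeR among genes with a mean of at least 1, where fewer of the 126 genes were tested, and to 2 (GNG3 and IL1R1), 0 and 0 with DESeq2's Wald test. With the replicate block in edgeR they were 2 (APOA5 and NCF1), 0 and 0. For DESeq2, genes left without a p count as not called. Pairing of wells by the same number in the labels was not seen, but these values cannot settle its absence. Correlations of deviations over 215 genes ran from -0.34 to 0.33 and no herb had all 3 of its pairs over 0.1. Leaving out each well gave 3 to 16, 4 to 8 and 7 to 12 calls, with 3 without Roucongrong well 3 and 7 without Gusuibu well 3. RLE scaling (14, 5 and 11), total-count scaling (14, 5 and 11) and one fit of all wells (15, 6 and 9) moved no count by over 1.5 times. The causes were not tested. The median number of genes detected was 25 for Roucongrong and 43 for Gusuibu without thinning, against 11.3 and 18.1. edgeR's filterByExpr kept none of the 126 genes and gave no value, and the alternative promoter window was not run, since that comparison was void.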

Other observations

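Some nearly silent genes lay beside one another in the genome. Of the 126, 26 (20.6%) had another of the 126 within 200 kb in the RefSeq order of genes, and 12 of the other 286 panel genes (4.20%) had a nearly silent gene that close. Any panel gene within that distance was found for 38 of the 126 (30.2%) and for 47 of the 286 (16.4%). Many of these neighbours are members of gene families or of the same plasma system. They included the chemokine receptor genes CCR1 and CCR2 on chromosome 3, the fibrinogen genes FGA and FGG on chromosome 4, C4A, C4B and CYP21A2 on chromosome 6, APOA1 and APOA5 on chromosome 11, and the leukocyte integrin genes ITGAM and ITGAX on chromosome 16. IL1A and IL1B lie together on chromosome 2 and INS and IGF2 on chromosome 11. These distances were not tested, since the panel was chosen by pathway and family members enter it together.

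One such pair held 2 of the genes above the floor in Roucongrong well 3. RARA and IGFBP4 are neighbours on chromosome 17, with 5 and 7 counts in that well, and their highest DMSO counts were 6 and 5. By contrast APOA1, the neighbour of APOA5, was at 0 in every herb well, while APOA5 had 16 counts in Roucongrong well 3. These pairs were picked after their values were seen.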
